A study of Homo sapiens with 4 samples.

Results

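The matrix metalloproteinases (MMPs), the ADAM and ADAMTS proteases and the tissue inhibitors of metalloproteinases (TIMPs) were followed in MHCC-LM3 cells, an established human hepatocellular carcinoma line, given the ginger sesquiterpene zerumbone or its solvent. Members were all genes whose symbol is MMP, TIMP, ADAM or ADAMTS followed by a number, with ADAMTS-like, antisense and pseudogene names left out. They come to 66 of the 22465 genes with a row of their own, 22 MMPs, 3 TIMPs, 23 ADAMs and 18 ADAMTS genes. ADAM1A, ADAM3A, ADAM5 and ADAM6 are members by name, although RefSeq lists them as pseudogenes. TIMP2 shares its row with another symbol and is not analysed here, and neither are MMP23A, MMP23B, ADAM1B, ADAM3B, ADAM7 and ADAMTS7.

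Cells of this line received 50 µM zerumbone for 24 h in 2 samples and DMSO for 24 h in 2 samples, each measured on 1 Affymetrix array of total RNA. All values are the authors' log2 expression values, and every difference is zerumbone minus DMSO on that scale. Replicate numbers were given here by the order of the deposited samples within a group and are not the study's labels. The labels do not say that samples of a group were separate cultures, so the p-values rest on a spread among samples that may be technical only. The line is the only one tested, and the DMSO samples are the only control. Of 12 hepatocyte markers 11 lay at background level in both groups, AFP and TTR among them, and ALB stood above it on 1 zerumbone array.

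MMPs are secreted or membrane-bound zinc endopeptidases that cut collagens, laminins and other matrix proteins, and most are made as inactive precursors. ADAMs are membrane proteins that release the outer part of growth factors, receptors and adhesion molecules, a step called shedding, and ADAMTS proteases are secreted enzymes that cut proteoglycans, procollagens and other matrix glycoproteins. TIMPs bind the active site of these enzymes and block it. In liver cancer these genes are studied for their part in invasion, matrix turnover and growth factor release.

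Most members could not be measured in these cells. Background was read from 23 rows of antigenomic probes, and a gene counts as at background level in a group where neither array exceeds their 95th percentile. That percentile was 4.74 and 5.03 on the zerumbone arrays and 4.54 and 5.10 on the DMSO arrays. By this measure 47 of the 66 members (71.2%) were at background level in both groups, against 48.9% of all genes tested. They were 17 of 22 MMPs, 15 of 23 ADAMs and 15 of 18 ADAMTS genes. No TIMP was among them. The other 19 members lay above background on at least 1 array, and all are described here with their values.

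Zerumbone changed the measurable members in both directions. By limma across all genes, with Benjamini-Hochberg adjustment and a threshold of 0.05, 6 members rose and 9 fell. That is 22.7% of the members, against 36.0% of all genes tested. Rises made up 9.09% of the members and 18.4% of all genes, and falls 13.6% of the members and 17.7% of all genes. The members also had the larger share at background level, 71.2% against 48.9%. Of the genes above background on at least 1 array, 14 of 19 members passed the test, against 63.7% of all such genes. These shares are a description, since a gene can enter that group through the samples in which it is high. The median difference of the members was 0.06, against 0.07 over all genes. MMP1 had the largest rise and TIMP3 the largest fall among the members. In bulk RNA a change in how many cells carry a transcript and a change per cell cannot be told apart.

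**Figure D1:**
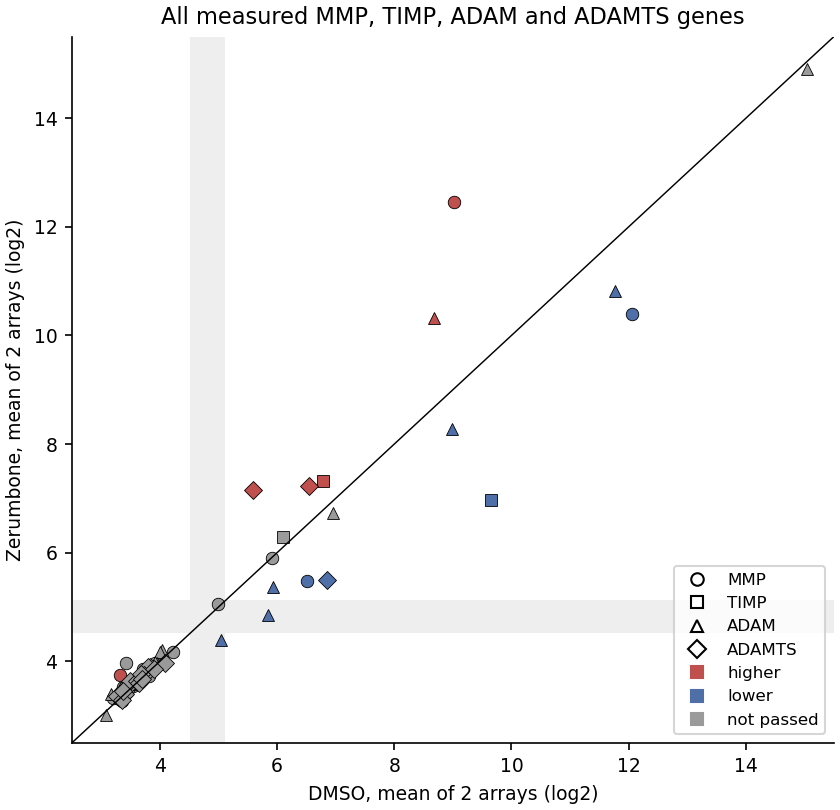
Mean deposited value (log2) of each of the 66 members under zerumbone (vertical axis, 2 arrays) and under DMSO (horizontal axis, 2 arrays). Symbols mark the class and colours the limma call, the line marks equal values and the grey bands span the background percentiles of the 4 arrays. The 47 members at background level crowd at the lower left, and MMP1 and TIMP3 lie farthest above and below the line.

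**Figure D2:**
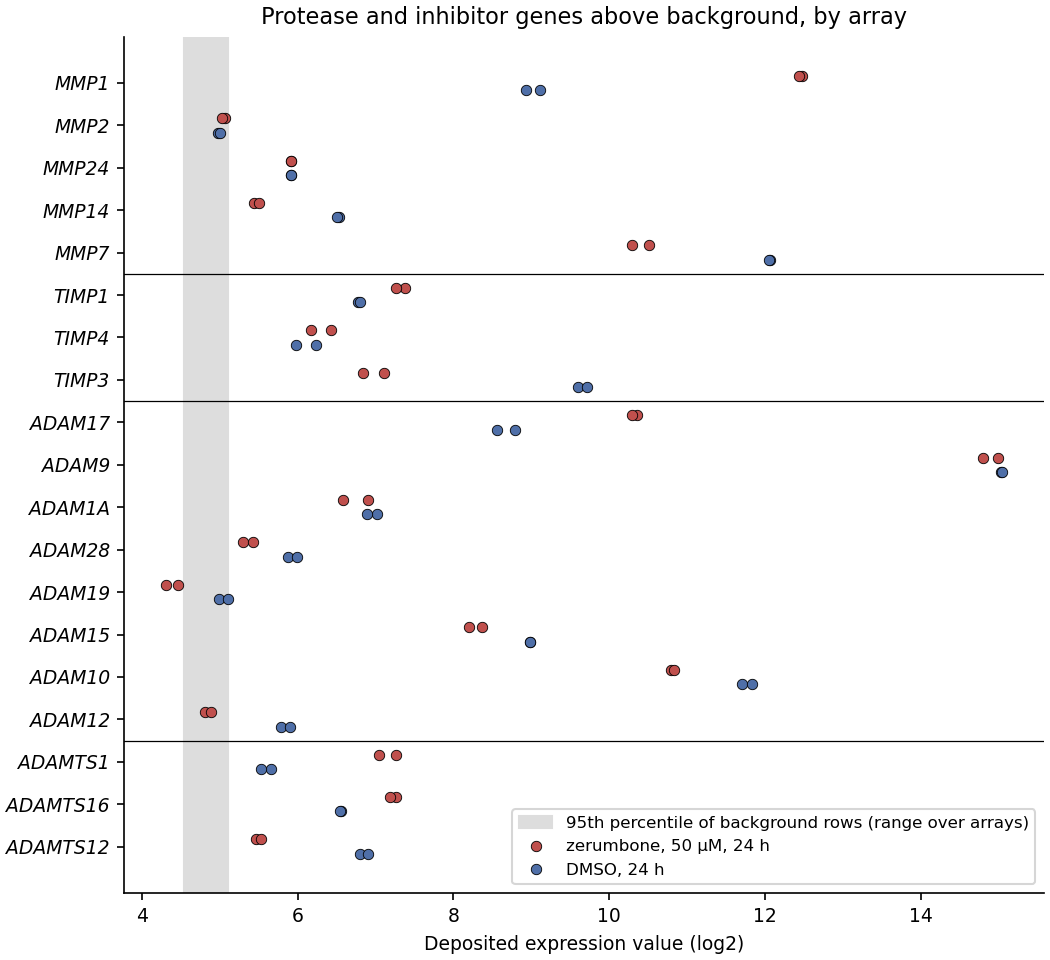
Deposited value (log2, horizontal axis) of the 19 members above background on at least 1 array, with a point for each of the 2 zerumbone arrays (upper) and the 2 DMSO arrays (lower). The grey band spans the background percentiles of the 4 arrays. The points of the groups overlap in ADAM1A and TIMP4, and MMP1 and TIMP3 show the widest gaps.

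Among the collagenases, which open the triple helix of fibrillar collagen, MMP1 was measurable. MMP1 stood at 12.48 and 12.44 on the zerumbone arrays and at 8.93 and 9.11 on the DMSO arrays. Both zerumbone values lie far above both DMSO values, and the DMSO arrays were already well above background. The difference was 3.44 (95% interval 3.22 to 3.66), a 10.9-fold rise with a limma adjusted p of 4.37e-05. MMP8, the neutrophil collagenase, and MMP13, another collagenase, were at background level in both groups, with differences of 0.11 and -0.01.

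Matrilysin went the other way. MMP7, a small protease that lacks the haemopexin domain of most MMPs and is made by epithelial cells, stood at 10.29 and 10.51 under zerumbone and at 12.06 and 12.06 under DMSO. Its groups do not overlap, and the zerumbone arrays differ more from each other than the DMSO arrays do. MMP7 fell by 1.66 (interval -1.89 to -1.42), which is 3.16-fold lower, with a limma adjusted p of 2.04e-04. The other matrilysin, MMP26, was at background level in both groups.

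Membrane-type MMPs are anchored at the cell surface, and MMP14 (MT1-MMP) among them activates the precursor of MMP2. MMP14 stood at 5.44 and 5.50 under zerumbone and at 6.53 and 6.50 under DMSO. The groups are separate and each is tight. The difference of -1.04 (interval -1.21 to -0.88) is a 2.06-fold fall, with a limma adjusted p of 2.66e-04. MMP24 (MT5-MMP), known from nervous tissue, had 5.91 on each zerumbone array and 5.92 on each DMSO array. Its difference was -0.01 with an interval of -0.16 to 0.15 (limma adjusted p 0.951), so a change larger than that interval was not seen. MMP15, MMP16, MMP17 and MMP25 were at background level in both groups.

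The gelatinases, which cut denatured collagen and type IV collagen, were near or at background. MMP2 had values of 5.07 and 5.02 under zerumbone and of 4.98 and 5.01 under DMSO, under the percentile on 1 array of each group. Its difference was 0.06 with an interval of -0.11 to 0.22 and a limma adjusted p of 0.538. MMP9 was at background level in both groups, as were the stromelysins MMP3, MMP10 and MMP11, which cut a wide range of matrix proteins.

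MMP19, a secreted MMP first described in inflamed joints, passed the test although it lay at background level in both groups. It had 3.79 and 3.71 under zerumbone and 3.27 and 3.37 under DMSO, a difference of 0.43 with a limma adjusted p of 0.00839, and no fold is given at this level. Without DMSO replicate 1 the adjusted p was 0.0712. MMP10 (stromelysin 2), singled out after its values were seen, had 4.19 and 3.74 under zerumbone and 3.39 and 3.46 under DMSO, also at background level. Its difference of 0.54 missed the threshold at a limma adjusted p of 0.0516 and passed it without zerumbone replicate 2 (0.00609) and after centring each array on its median (0.0461). MMP3 and MMP10 are close in sequence, and cross-hybridisation was not tested.

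The MMP genes of chromosome 11 lie side by side, in the order MMP7, MMP20, MMP27, MMP8, MMP10, MMP1, MMP3, MMP12 and MMP13, with no other coding gene of RefSeq between the first and the last. Within this run of 9 genes, MMP1 rose and MMP7 fell. The 7 others lay at background level with and without zerumbone and did not pass the test, with differences from -0.09 for MMP20 to 0.54 for MMP10. MMP1 thus stood between MMP10 and MMP3, a pair of neighbours that were both at background level.

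**Figure D3:**
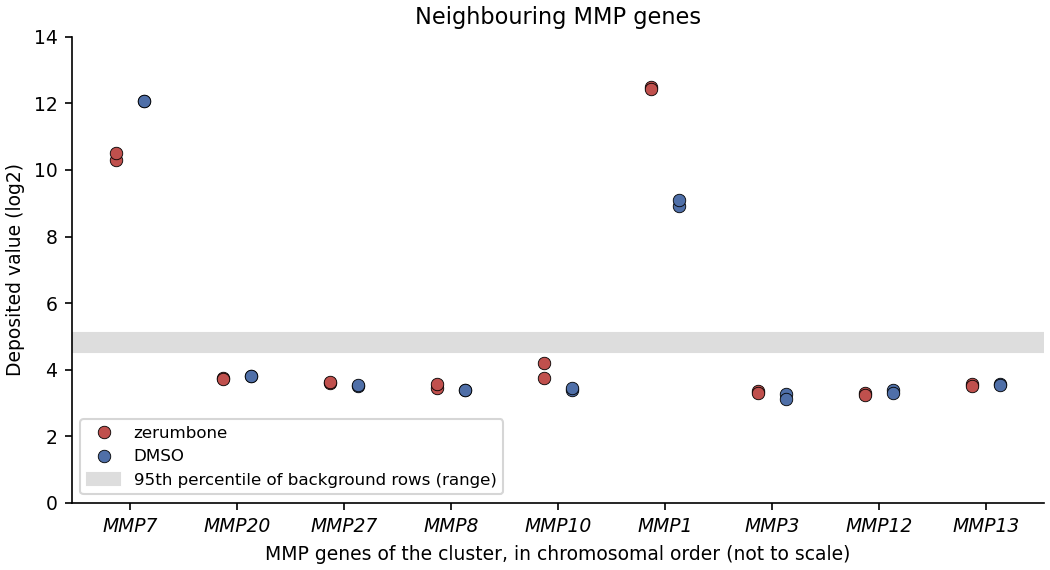
Deposited value (log2, vertical axis) of the 9 neighbouring MMP genes in chromosomal order (horizontal axis, not to scale), with zerumbone arrays to the left and DMSO arrays to the right at each gene. The grey band spans the background percentiles. MMP1 and MMP7 stand above the band with opposite order of the groups, and the other 7 genes lie under it.

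Sequences are shown for genes of this run because the family is known in the literature of MMP promoters for a TATA box with an AP-1 site close upstream, to which FOS and JUN proteins bind. RefSeq promoter windows of build GRCh38.p14, here the 250 bases before the start of the gene, were found for 37 members, with 38 windows. Of the 19 members above background on at least 1 array, MMP1, MMP2, ADAM1A, ADAM9, ADAM28, ADAMTS1 and ADAMTS16 had no window and were not searched. Many members at background level, also some named here, had no window either, so no motif can be said to be absent from them. The windows of MMP7 (chr11:102530748-102530997, minus strand) and MMP10 (chr11:102780629-102780878, minus strand) read 5′ to 3′ as follows, with motif matches on either strand in capitals. For AP-1 the letters searched were TGANTCA, for the core promoter element called TATA box they were TATAAA, and for the GC box they were GGGCGG.
MMP7: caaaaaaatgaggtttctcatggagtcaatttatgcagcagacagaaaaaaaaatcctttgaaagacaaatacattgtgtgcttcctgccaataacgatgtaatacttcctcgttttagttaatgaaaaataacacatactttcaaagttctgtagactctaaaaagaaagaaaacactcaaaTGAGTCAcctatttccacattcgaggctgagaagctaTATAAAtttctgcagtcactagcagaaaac
MMP10: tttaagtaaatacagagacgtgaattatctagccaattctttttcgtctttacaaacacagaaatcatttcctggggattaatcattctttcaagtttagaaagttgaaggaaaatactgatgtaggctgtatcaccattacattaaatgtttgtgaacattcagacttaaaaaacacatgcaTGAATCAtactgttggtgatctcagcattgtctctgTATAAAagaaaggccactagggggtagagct
In both, the AP-1 match begins 67 bases before the start, and the TATA match begins 30 bases before it in MMP7 and 31 bases before it in MMP10. No GC box was found in either window, and no matches overlap. The AP-1 letters occur in 4 of the 38 member windows (10.5%), those of ADAMTS12, MMP7, MMP10 and MMP20, and in 5.36% of 22199 windows of coding genes. The TATA letters occur in 7 member windows (18.4%), those of ADAMTS10, MMP7, MMP8, MMP10, MMP20, MMP21 and MMP26, and in 1999 of the 22199. Of the run on chromosome 11, MMP20 thus had both sets of letters, and MMP8 had the TATA letters without the AP-1 letters. Both genes were at background level, and their windows are not shown. A match describes the letters and does not show a site in use.

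Of the inhibitors, TIMP3 fell and TIMP1 rose. TIMP3, which binds to the matrix and inhibits ADAM and ADAMTS proteases as well as MMPs, stood at 6.85 and 7.11 under zerumbone and at 9.60 and 9.71 under DMSO. All arrays were above background and the groups are far apart. The mean was 6.98 ± 0.185 under zerumbone and 9.66 ± 0.0760 under DMSO (SD, n = 2 each), a difference of -2.68 (interval -2.96 to -2.40). This is a 6.42-fold fall with a limma adjusted p of 9.28e-05.

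TIMP1, a soluble inhibitor of many MMPs, stood at 7.38 and 7.26 under zerumbone and at 6.77 and 6.79 under DMSO. Its groups do not overlap, and the change is small beside that of TIMP3. The difference of 0.54 (interval 0.36 to 0.72) is a 1.45-fold rise, with a limma adjusted p of 0.00340. TIMP4, an inhibitor best known from heart, had 6.17 and 6.42 under zerumbone and 5.98 and 6.24 under DMSO. These groups overlap, and the difference of 0.19 had an interval of -0.15 to 0.53 and a limma adjusted p of 0.323.

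TIMP1, TIMP3 and TIMP4 each lie within an intron of a synapsin gene, SYN1, SYN3 and SYN2 in that order. The 3 host genes did not exceed background in either group, with differences of 0.07 for SYN1, -0.03 for SYN3 and 0.13 for SYN2 that did not pass the test. The promoter windows of the called inhibitors are shown because they differ from those of MMP7 and MMP10 in the exact letters searched. They lie at chrX:47582186-47582435 for TIMP1 and at chr22:32801455-32801704 for TIMP3, both on the plus strand, with GC boxes on either strand in capitals.
TIMP1: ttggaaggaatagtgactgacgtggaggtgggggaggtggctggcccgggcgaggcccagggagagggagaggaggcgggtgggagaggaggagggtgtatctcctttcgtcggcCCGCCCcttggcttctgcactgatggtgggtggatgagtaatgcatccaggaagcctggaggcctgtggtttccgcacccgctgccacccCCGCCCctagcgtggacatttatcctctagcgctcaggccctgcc
TIMP3: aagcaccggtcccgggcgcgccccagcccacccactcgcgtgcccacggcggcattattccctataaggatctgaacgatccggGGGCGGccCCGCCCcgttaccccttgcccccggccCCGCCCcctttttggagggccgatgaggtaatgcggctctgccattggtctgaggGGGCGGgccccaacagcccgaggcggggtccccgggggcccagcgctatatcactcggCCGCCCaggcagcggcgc
The window of TIMP1 holds 2 GC boxes and that of TIMP3 holds 5, and neither holds the AP-1 or the TATA letters. Only exact letters were searched, so a variant of a site was not counted. GC boxes occur in 24 of the 38 member windows (63.2%) and in 53.7% of all windows of coding genes.

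**Figure D4:**
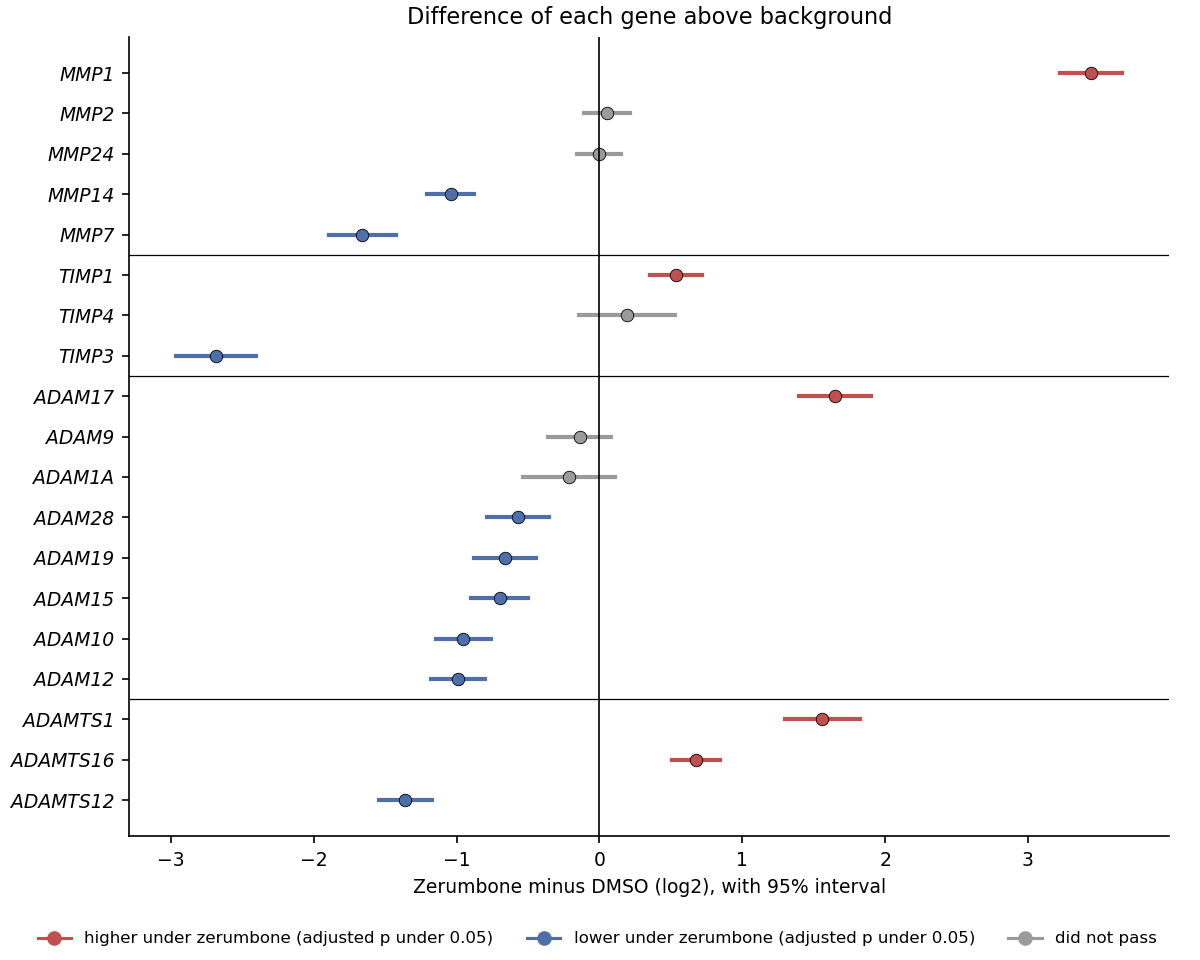
Difference, zerumbone minus DMSO (log2, horizontal axis), of the 19 members above background on at least 1 array, with its 95% interval from limma, grouped as MMP, TIMP, ADAM and ADAMTS genes from top to bottom. Each class holds at least 1 rise and 1 fall, and of the ADAM genes ADAM17 is the one whose interval lies above 0.

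Of the 23 ADAM genes 1 rose (4.35%) and 5 fell (21.7%), beside 18.4% and 17.7% of all genes. ADAM17, the tumour necrosis factor converting enzyme, which sheds that cytokine and several ligands of the EGF receptor, stood at 10.36 and 10.29 under zerumbone and at 8.56 and 8.79 under DMSO. The zerumbone values exceed both DMSO values by more than the spread within either group. The difference of 1.65 (interval 1.40 to 1.90) is a 3.14-fold rise, with a limma adjusted p of 2.48e-04.

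ADAM10, the closest relative of ADAM17 in function, which sheds NOTCH receptors, cadherins and other ligands, moved in the opposite direction. It stood at 10.79 and 10.83 under zerumbone and at 11.70 and 11.83 under DMSO, with no overlap. ADAM10 fell by 0.95 (interval -1.15 to -0.76), a 1.94-fold change with a limma adjusted p of 5.92e-04.

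ADAM15, a membrane protease with an integrin-binding site, stood at 8.36 and 8.21 under zerumbone and at 8.98 and 8.98 under DMSO, a 1.62-fold fall (limma adjusted p 0.00193). ADAM12, known from tumours, placenta and regenerating muscle, had 4.82 and 4.89 under zerumbone and 5.79 and 5.90 under DMSO. It was under the background percentile on 1 zerumbone array, and its difference was -0.99 with a limma adjusted p of 5.10e-04. ADAM28, a protease known from lymphocytes and epithelial tumours, had 5.30 and 5.43 under zerumbone and 5.88 and 5.99 under DMSO, a 1.49-fold fall (limma adjusted p 0.00507). In all 3 genes the zerumbone values lie below both DMSO values.

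ADAM19, an ADAM known from heart development in the mouse, was at background level under zerumbone, at 4.46 and 4.31, and stood at 4.99 and 5.11 under DMSO. The DMSO arrays were themselves close to the percentile, and against it the fall is at least 1.12-fold (limma adjusted p 0.00316). ADAM9, a widely expressed membrane protease, had 14.80 and 14.99 under zerumbone and 15.03 and 15.04 under DMSO. Its values do not overlap, but the difference of -0.14 (interval -0.36 to 0.08) did not pass, with a limma adjusted p of 0.280. The pseudogene ADAM1A had 6.90 and 6.58 under zerumbone and 7.01 and 6.90 under DMSO, with overlapping groups and a limma adjusted p of 0.249. Without zerumbone replicate 1 its adjusted p was 0.0475.

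ADAMs that lack protease activity act in cell adhesion, several of them on sperm or on nerve cells. The 7 measured, ADAM2, ADAM11, ADAM18, ADAM22, ADAM23, ADAM29 and ADAM32, did not exceed background in either group, and none passed the test. Of the 12 proteolytic ADAMs 7 were above background on at least 1 array, and 5 were not, namely ADAM8, ADAM20, ADAM21, ADAM30 and ADAM33.

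In the ADAMTS class 3 genes were measurable and all passed the test. They are 16.7% of the 18 genes of the class, beside the 36.0% of all genes that passed. ADAMTS1, which cuts the proteoglycans aggrecan and versican, stood at 7.04 and 7.26 under zerumbone and at 5.66 and 5.52 under DMSO. The difference of 1.56 (interval 1.30 to 1.82) is a 2.95-fold rise, with a limma adjusted p of 3.22e-04. Its groups do not overlap, and its neighbour on the chromosome, ADAMTS5, another enzyme that cuts aggrecan, was at background level in both groups with a difference of -0.07.

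ADAMTS16, a less studied member known from kidney, had 7.27 and 7.18 under zerumbone and 6.55 and 6.54 under DMSO, a 1.60-fold rise (limma adjusted p 0.00118). ADAMTS12, which cuts cartilage oligomeric matrix protein, went down, with 5.46 and 5.53 under zerumbone and 6.80 and 6.91 under DMSO. Both genes had groups without overlap. ADAMTS12 fell by 1.36 (interval -1.55 to -1.17), a 2.57-fold change with a limma adjusted p of 1.87e-04. Its window, chr5:33891991-33892240 on the minus strand, is shown because it is, among the windows searched, the other measurable member with the AP-1 letters, and it pairs them with a GC box and no TATA match.
ADAMTS12: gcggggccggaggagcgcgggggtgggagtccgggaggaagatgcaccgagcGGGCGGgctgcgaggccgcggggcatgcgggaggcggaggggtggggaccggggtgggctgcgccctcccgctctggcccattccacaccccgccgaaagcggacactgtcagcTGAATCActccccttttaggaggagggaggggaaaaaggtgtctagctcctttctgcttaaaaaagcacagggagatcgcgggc
The AP-1 match begins 84 bases before the start. The procollagen propeptidases ADAMTS2, ADAMTS3 and ADAMTS14, which trim collagen precursors, were at background level in both groups.

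The 47 members at background level in both groups had mean values from 3.01 to 4.21 under zerumbone and from 3.09 to 4.23 under DMSO. Their differences ran from -0.11 for ADAMTS15 to 0.54 for MMP10, with a median of 0.07. MMP19 alone among them passed the test. The median of all 10978 genes at background level in both groups was 0.08.

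Genes that act with these proteases were followed in 8 lists. The counts of each list stand beside 18.4% of all genes that rose and 17.7% that fell. Together the lists hold 132 measured genes that are no members. Of these 32 rose and 32 fell (48.5%, beside the 36.0% of all genes), and the rises numbered 20 without DMSO replicate 1 and 20 without DMSO replicate 2. In the list of protease activators and membrane partners 7 of 17 rose and 3 fell, with a median of 0.15, and the rises numbered 2 without either DMSO array. FURIN, the convertase that removes the inhibitory prodomain of MMP14 and of ADAMs, stood at 8.81 and 8.79 under zerumbone and at 7.59 and 7.58 under DMSO, a 2.32-fold rise (limma adjusted p 1.51e-04).

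All 3 falls in that list were tetraspanins that bind ADAM10 and guide it through the cell. TSPAN15 stood at 6.85 and 6.72 under zerumbone and at 8.51 and 8.42 under DMSO, a 3.21-fold fall (limma adjusted p 1.29e-04). TSPAN14 was lower by 1.91-fold (8.06e-04) and TSPAN5 by 1.63-fold (0.00388, adjusted p in limma as before). The related TSPAN10, TSPAN17 and TSPAN33 differed by 0.13, 0.12 and 0.19 and did not pass.

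Partners of ADAM17 and the inhibitor RECK, all of the same list, were chosen for mention after their values were seen. RHBDF2 (iRhom2), which carries ADAM17 to the cell surface, had 5.98 and 6.10 under zerumbone and 5.71 and 5.75 under DMSO, which is 0.31 apart (limma adjusted p 0.0241). RHBDF1 (iRhom1), at background level under DMSO and under the percentile on 1 zerumbone array, had a difference of 0.36 (0.0196). RECK, a membrane-anchored inhibitor of MMPs, differed by 0.61 (0.0199). All 3 passed. Left-out arrays ended these calls, for RECK without either DMSO array (0.0692 and 0.122), for RHBDF1 without either DMSO array or zerumbone replicate 1 (0.0673 to 0.130) and for RHBDF2 without either DMSO array or zerumbone replicate 2 (0.0687 to 0.142). BSG (CD147), which induces MMPs in neighbouring cells, differed by -0.12 without passing (0.215). FRMD8, in the list as a partner too, differed by 0.13 and did not pass (0.186).

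In the plasminogen activator system, the serine protease cascade that acts beside the MMPs, 1 of 8 genes rose and 2 fell. PLAUR, the urokinase receptor, stood at 8.87 and 8.58 under zerumbone and at 6.82 and 6.97 under DMSO, a 3.55-fold rise (limma adjusted p 3.43e-04). Its ligand, the urokinase gene PLAU, had 7.58 and 7.47 under zerumbone and 7.55 and 7.60 under DMSO and did not pass (0.643). PLAT, the tissue activator, differed by -1.65 (8.22e-05) and was under the percentile on 1 zerumbone array. SERPINE2, a serpin that inhibits urokinase, differed by -0.31 (0.0136) and lost the call without DMSO replicate 1 (0.0931) or DMSO replicate 2 (0.0958).

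Of 19 other proteases of the matrix and cell surface 4 rose and 2 fell, and 11 were at background level in both groups. CTSL, a lysosomal cysteine protease, was 1.73-fold higher (limma adjusted p 6.30e-04), and CTSK, a collagen-degrading cathepsin, differed by 0.77 (7.22e-04) with 1 DMSO array under the percentile. CTSS, a cathepsin of antigen-presenting cells, fell 1.66-fold (0.00458) and DPP4, a surface peptidase, 1.56-fold (0.00132). None of 9 other protease inhibitors passed, and 6 of them were at background level in both groups.

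Substrates that ADAMs shed from the membrane changed in both directions, with 8 of 30 higher and 11 lower and a median of 0.02. EREG (epiregulin), an EGF receptor ligand that ADAM17 releases, stood at 8.96 and 8.96 under zerumbone and at 12.98 and 12.89 under DMSO, a 15.8-fold fall (limma adjusted p 3.50e-05). Named after its values were seen, HBEGF, also shed by ADAM17, had 6.60 and 6.52 under zerumbone and 4.97 and 4.66 under DMSO, where 1 array was under the percentile, a difference of 1.75 (3.55e-04). TGFA, likewise shed by it and also named after its values were seen, differed by -0.54 (0.00503) with 1 zerumbone array under the percentile. EREG, HBEGF and TGFA thus moved in different directions while ADAM17 itself rose. TNF, the cytokine that ADAM17 is named for, was at background level in both groups, with means of 3.64 under zerumbone and 3.49 under DMSO. AREG, listed among these substrates, had no row of its own.

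IL6R, the interleukin-6 receptor, which ADAM10 and ADAM17 can both release, stood at 10.84 and 10.75 under zerumbone and at 7.91 and 7.94 under DMSO, a 7.30-fold rise (limma adjusted p 4.01e-05). MICB, a stress ligand for natural killer cells, rose 5.30-fold (7.65e-05), and ALCAM, an adhesion molecule shed by ADAM17, fell 6.65-fold (5.60e-05). These values are RNA levels, and neither the protease activity nor the shed proteins were measured.

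Matrix proteins that MMPs and ADAMTS proteases cut fell more often than they rose. Of 22 genes 8 fell (36.4%) and 1 rose (4.55%), and 11 were at background level in both groups. Over all genes 17.7% fell and 18.4% rose. Of the 11 genes of the list above background on at least 1 array 8 fell, against 3795 of 11487 such genes in all. That count is a description, since a gene can enter it through the arrays where it is high, as DCN did through 1 DMSO array. The rise was in BCAN, at background level in both groups, and the count of rises was 0 with any 1 array left out. THBS1 (thrombospondin 1) stood at 7.11 and 7.03 under zerumbone and at 11.37 and 11.35 under DMSO, a 19.6-fold fall (limma adjusted p 3.50e-05). VCAN (versican), a substrate of ADAMTS1, was 5.11-fold lower (6.34e-05), FBN1 (fibrillin 1) 5.67-fold lower (7.98e-05) and LAMB1, a laminin chain, 3.89-fold lower (8.44e-05). The substrate VCAN and the protease ADAMTS1 thus changed in opposite directions.

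Among 7 ADAMTS-like genes, whose products lack the protease domain, ADAMTSL5 rose and 5 never exceeded background. ADAMTSL5 stood at 4.93 and 5.06 under zerumbone and was at background level under DMSO, so its rise is at least 1.13-fold (limma adjusted p 0.00541). Without DMSO replicate 2 the adjusted p was 0.0508.

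The transcription factors that act on MMP promoters, AP-1 and ETS proteins and a few others, held 10 rises and 6 falls among 20 genes. That is 50.0% and 30.0%, beside 18.4% and 17.7% of all genes, with a median of 0.40. Above background on at least 1 array were 19 of them, and 78.9% of those passed, against 63.7% of all such genes. ATF3, an AP-1 partner induced by stress, stood at 9.72 and 9.74 under zerumbone and at 5.91 and 6.07 under DMSO, a 13.3-fold rise (limma adjusted p 4.01e-05). ETS1 rose 3.79-fold (7.63e-05), while ELF3, an epithelial ETS factor, was 3.14-fold lower (7.98e-05) and ETV1, at background level under zerumbone, at least 2.86-fold lower (1.10e-04). Named after their values were seen, the AP-1 subunits FOSL1 and JUN rose 2.62-fold (2.54e-04) and 2.08-fold (0.00174). Other FOS and JUN genes of the list changed less clearly. FOSL2 differed by -0.09 (0.508) and JUNB by 0.47 (0.0666), and neither passed. JUND was 1.25-fold higher (0.0185), and FOS, at background level under DMSO, at least 1.11-fold higher (0.0092). FOSB, at background level under DMSO and under the percentile on 1 zerumbone array, differed by 0.79 (0.0065).

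**Figure D5:**
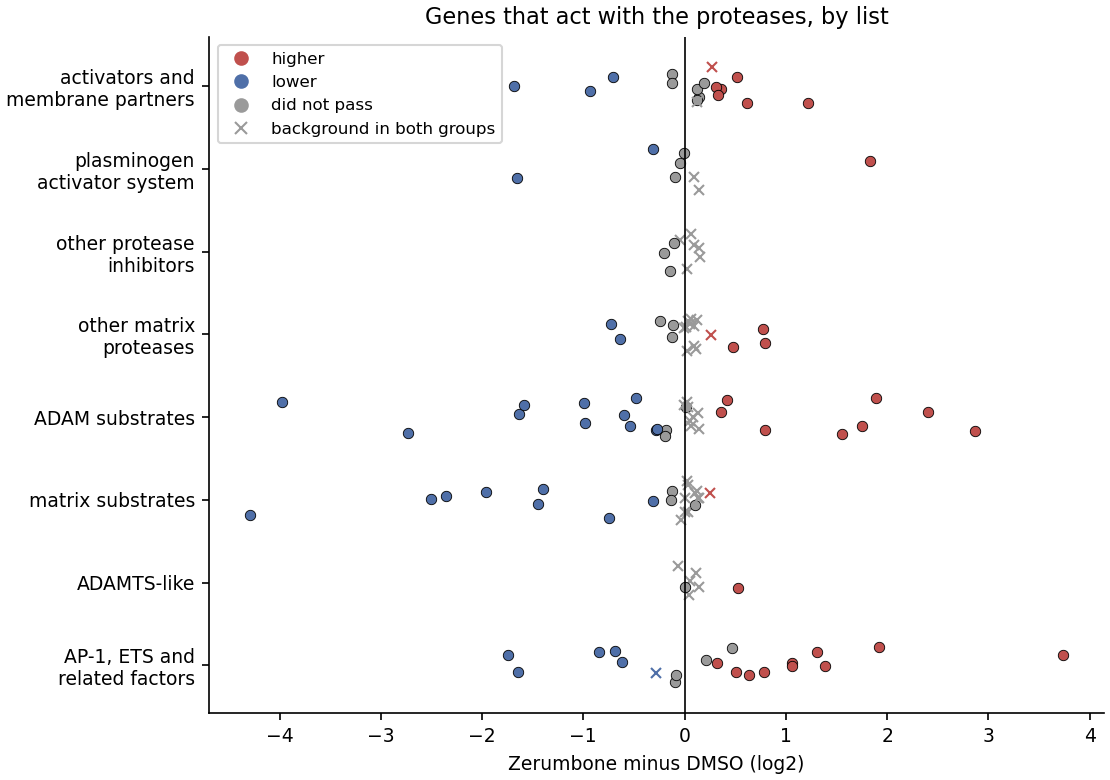
Difference, zerumbone minus DMSO (log2, horizontal axis), of each measured gene in 8 lists of genes that act with the proteases, with random vertical scatter within a list. Circles are genes above background on at least 1 array and crosses are genes at background level in both groups, both coloured by the limma call. Matrix substrates above background lie mostly to the left of 0, with THBS1 at -4.29, and the ADAM substrates spread to both sides.

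Markers of other cell types were read beside these results. At background level in both groups were 8 of 11 markers of fibroblasts and stellate cells, 8 of 10 of endothelium and 10 of 11 of leukocytes, and among them the defining markers COL1A1, PDGFRB, CDH5, PECAM1, PTPRC and CD14. The exceptions were LUM (-1.22), DCN (-0.32), RGS5 (0.49), KDR (-1.93), ESAM (-0.80) and CD68, a lysosomal protein listed here as a leukocyte marker (0.93), as differences. Summed on the linear scale, the fibroblast markers came to 207 and 207 under zerumbone and 252 and 268 under DMSO. The endothelial markers came to 235 and 232 under zerumbone and 441 and 463 under DMSO. The lower fibroblast sums under zerumbone lay mainly in LUM and the lower endothelial sums mainly in KDR and ESAM, while 8 markers of each type were at background level. The leukocyte sums, nearly all CD68, were 23851 and 23602 under zerumbone and 12770 and 12293 under DMSO. Their part in the members' differences was not tested. Zerumbone arrays correlated with each other at 0.998 and DMSO arrays at 0.999 (Pearson, across genes), against 0.968 to 0.969 between groups.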

How the data were processed

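Total RNA of 4 MHCC-LM3 samples was measured on 1 Affymetrix array each. The authors deposited 1 table of log2 values. The submitters' processing notes name RMA and Affymetrix Expression Console. The versions and the genome build are not given in the sources used here. The values reach 19.93, and whether they were rescaled after RMA is not stated, so folds are on the deposited scale.

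Of 70523 rows, 67528 are transcript clusters. The platform annotation gives 23781 of them 1 symbol, 1543 several and 42204 none. For 479 genes with several rows the brightest was kept, which leaves 22465 genes. None of the 66 members had a second row. Groups were compared with lmFit and eBayes of limma 3.58.1 in R 4.3.3, two-sided, with 2 residual and 2.88 prior degrees of freedom and Benjamini-Hochberg adjustment over all 22465 genes. Every p-value in parentheses after a fold or a difference is such an adjusted p. A fold against a group at background level uses the background percentile in place of a dimmer value. The fit was also run on simulated data with independent noise and known changes, in a far smaller share of genes than passed here. That run checks the code only and does not bear on the calls reported.

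Members, lists and tests were chosen with earlier results of these data known. Named were all members above background on at least 1 array, called members at background level, and of each list of partner genes up to 4 called genes with the largest differences. Further genes are marked where their values led to the choice. The array titles run in group order, so any effect of processing order and the treatment cannot be told apart. The number of arrays limits the precision.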

Additional observations from a re-analysis of the deposited data

Results flagged for a closer look

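Rows with names like those of the members, which the comparison of members leaves out, were read for signal above the DMSO level. Antisense and ADAMTS-like rows and rows with several symbols were included. The ADAMTSL5 row was above background on both zerumbone arrays, at 4.93 and 5.06, and at background level under DMSO, at 4.51 and 4.42, a difference of 0.53. The MMP24-AS1 row, antisense to MMP24, had 5.56 and 5.34 under zerumbone and 5.30 and 5.30 under DMSO, a difference of 0.15 with a limma adjusted p of 0.285 that did not pass.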

How the results depend on the processing

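The 6 rises and 9 falls among the members were little changed by the settings tried. Over centring on the median, cyclic loess, leaving out dim genes, both other choices of row, a trended robust variance, each array left out, an adjusted threshold of 0.01 and members without pseudogenes, the rises numbered 5 to 7 and the falls 9 to 10. Of 208 repeat values for 21 genes, 203 kept their direction and their side of the threshold, 3 newly passed (MMP10 under 2 settings and ADAM1A under 1) and 1 (MMP19) no longer passed. The difference of MMP24, not past the threshold, was 0.0151 after cyclic loess, against -0.01 as reported, a change of sign. All genes called numbered 8091, with 5458 without DMSO replicate 1, 5541 without DMSO replicate 2, 5702 at an adjusted threshold of 0.01 and 7273 to 8411 in the other repeats of the fit. Rises among the partner genes ranged from 20 to 29 over the fits that leave out 1 array, against 32 in all. Members at background level in both groups numbered 47 at the 90th percentile, 49 at the 99th and 47 without the background row of lowest GC content, a setting chosen after seeing the data in which MMP2 and ADAM12 were above background on all arrays. The background rows limit what can be said of dim genes. No paired analysis was possible because the labels give no replicate numbers.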

Other observations

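The row annotated with both CEP295NL and TIMP2 had 7.34 and 7.12 under zerumbone and 7.28 and 7.18 under DMSO, a difference of 0.00 that cannot be given to either gene. The row shared by MMP23B and MMP23A did not exceed background on any array, with 3.92 and 3.88 under zerumbone and 3.84 and 3.84 under DMSO.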
